A study of Homo sapiens with 9 samples.

Results

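The interferon-linked genes described here, 8 in all, were measured in 9 RNA-seq libraries. They are the ADP-ribosyltransferase family members PARP9, PARP10, PARP12 and PARP14, the ubiquitin ligase gene DTX3L, and the nuclear body genes PML, SP100 and SP110. They were taken by symbol from a table of 58174 genes, and each of the 8 symbols matched 1 row. Of these, 7 reached 1 TPM (a level normalised for transcript length and scaled to a fixed library total) in every library, and PARP14 did so in only 2 NFE2L1 libraries and was not tested. The labels give 3 libraries as control with the genotype WT, which the protocol text names after the lentiviral vector pLVX, 3 as NFE2L1 overexpression and 3 as NFE2L1DC overexpression. All are labelled as the human liver tumour line HepG2, grown in high-glucose DMEM with fetal bovine serum. In the protocol text the second form is NFE2L1ΔC. The labels give neither the extent of the deletion nor whether a line was 1 clone or a pool. By its title, the series asks about a non-transcriptional role of NFE2L1.

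ADP-ribosyltransferases transfer ADP-ribose from NAD onto proteins and nucleic acids. Several of the members that add single ADP-ribose units, together with PARP9 and its partner DTX3L, are induced by interferon and act in antiviral defence and the repair of DNA damage. PML is the scaffold of nuclear bodies, which assemble through the small modifier SUMO, and SP100 is a resident of these bodies. SP110 belongs to the SP100 family. Interferon acts through receptors and JAK kinases on transcription factors, STAT2 and IRF9 among them, that bind the interferon-stimulated response element in promoters.

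The libraries did not carry the markers of their labelled cell type. Of 10 hepatoma and hepatocyte markers, none reached 1 TPM in any library, 6 (ALB, APOB, TTR, SERPINA1, FGB and GPC3) were listed at 0 in all 9, and their summed level was at most 0.319 TPM. Of 5 fibroblast markers 4 reached 1 TPM, and the summed level of the 5 was 127 to 148 TPM in control, 91.8 to 106 TPM in NFE2L1 and 85.8 to 102 TPM in NFE2L1DC libraries. Most of that sum was COL3A1, with means of 107, 73.8 and 69.5 TPM in control, NFE2L1 and NFE2L1DC. COL1A1 was at 20.1, 18.2 and 20.7 TPM. In NFE2L1, PDGFRB and DCN had lower means than in control, and LUM a higher one (0.577 beside 0.199 TPM). Of 8 leukocyte markers, PTPRC, LYZ, CD3E and MS4A1 were at 0 in all libraries and CD68 and CSF1R reached 1 TPM. The summed level of these 8 was 24.2 to 25.8 TPM in control, 35.8 to 43.7 TPM in NFE2L1 and 26.5 to 29.2 TPM in NFE2L1DC. The part of these marker levels in the results was not tested. The 4 endothelial markers stayed under 1 TPM. NFE2L1 itself lay between 64.0 and 104 TPM in control, 181 and 354 TPM in the NFE2L1 line and 427 and 472 TPM in the NFE2L1DC line. No counts were available, so the depth of each library is unknown.

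Control replicate 3 stood apart from control replicates 1 and 2. Its difference from their mean on the log2(TPM + 1) scale ran against transcript GC content over 11445 protein-coding genes (Spearman's rho -0.668, a description, since genes in 1 library share that library). Among the members, this difference was 1.04 for SP100 (transcript GC content 42.5%), 1.02 for DTX3L (44.2%), 0.45 for PARP14 (42.4%) and 0.41 for PARP9 (43.4%). It was 0.26 for PML (58.2%), 0.17 for PARP12 (54.5%), 0.13 for PARP10 (66.9%) and -0.19 for SP110 (44.1%), beside a median of 0.18 over the genes tested. On this scale, SP100 and DTX3L were therefore the members whose control replicate 3 stood furthest from the other controls. Results against control are given with and without this library where it matters.

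Promoter sequences are shown because 6 of the 7 members tested rose together in the NFE2L1 line. RefSeq windows on GRCh38.p14, matched by symbol, were taken for 6 of the 8 genes (PARP9, PARP12, PARP14, DTX3L, SP100 and SP110). PML had no entry. PARP10 was left out of the search by choice, so its promoter was not examined and the member shares below do not cover it. Each window of 300 bases was searched on both strands for a pair of GAAA blocks with any 2 bases between them, the core of the interferon-stimulated response element, for AANNGAAA, the shorter core bound by interferon regulatory factors, and for TTCNNNGAA, the gamma-activated site. Every paired GAAA match contains an AANNGAAA. The paired match was found for 4 of the 6 genes (PARP9, DTX3L, PARP12 and PARP14), beside 4.38% of 27305 genes with such windows. AANNGAAA was found for 6 of 6, beside 26.7%, and TTCNNNGAA for PARP14 and SP110, beside 9.38%. The shares over windows were 3.57%, 22.8% and 7.66% of 35116. Of the 9 windows of members, 7 hold AANNGAAA. The windows of a PARP9 start at 122564784 and an SP100 start at 230416756 hold no match and are not printed. The members were picked as interferon-linked genes, so their shares beside those of all genes are no test of the rise seen here. A match describes letters and is not a measured binding site. The lines below run 5′ to 3′ along the gene from 110 bases before the start site to 30 bases from it, with bases in a match to the GAAA pair or to AANNGAAA in capitals; a match on the opposite strand reads as TTTC.
DTX3L, chr3:122564228-122564367, plus strand: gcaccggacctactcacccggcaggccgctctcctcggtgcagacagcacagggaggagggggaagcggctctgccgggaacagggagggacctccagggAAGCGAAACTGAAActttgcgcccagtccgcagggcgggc
PARP14, chr3:122680729-122680868, plus strand: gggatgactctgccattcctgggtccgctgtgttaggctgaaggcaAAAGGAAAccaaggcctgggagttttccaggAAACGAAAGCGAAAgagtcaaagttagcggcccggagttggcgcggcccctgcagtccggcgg
PARP12, chr7:140062922-140063061, minus strand: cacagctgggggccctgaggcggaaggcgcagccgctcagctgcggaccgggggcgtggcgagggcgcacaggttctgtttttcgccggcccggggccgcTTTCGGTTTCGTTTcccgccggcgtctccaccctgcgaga
SP110, chr2:230225607-230225746, minus strand: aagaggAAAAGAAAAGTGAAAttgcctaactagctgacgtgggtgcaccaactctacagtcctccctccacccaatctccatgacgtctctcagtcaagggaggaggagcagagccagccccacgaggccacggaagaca
SP110, chr2:230219955-230220094, minus strand: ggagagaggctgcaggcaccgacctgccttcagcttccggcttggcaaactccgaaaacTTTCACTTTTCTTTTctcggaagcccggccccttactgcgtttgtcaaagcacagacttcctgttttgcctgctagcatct
SP100, chr2:230416091-230416230, plus strand: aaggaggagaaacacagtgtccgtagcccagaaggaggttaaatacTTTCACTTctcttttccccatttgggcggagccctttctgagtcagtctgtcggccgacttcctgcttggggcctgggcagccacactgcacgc

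In the DTX3L window the capitals hold GAAACTGAAA at chr3:122564332-122564341, across the DTX3L start site. The window of a PARP9 start site at 122564300 on the minus strand holds the same bases, so PARP9 and DTX3L, whose starts are divergent, share 1 match. PARP14 holds GAAAGCGAAA 20 bases before its start, and PARP12 holds TTTCGGTTTC directly before its start. The 2 SP110 windows, from alternative starts, each hold a pair of AANNGAAA matches that share a base, and SP100 holds 1.

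The NFE2L1 line was compared with control first. Of the 7 members tested, 6 rose and none fell, beside 7.83% of all 14118 genes tested that rose and 2.57% that fell. The 6 were PARP9, DTX3L, PARP12, PARP10, SP100 and SP110. PML missed the threshold (adjusted p = 0.0585). Over all genes 1105 rose and 363 fell, a split that became 553 and 465 under median-of-ratios scaling, with 6 members called under both. The median log2 fold change of the 7 was 1.24, beside 0.17 over all genes tested, and all 7 had positive values beside 68.7% of all genes. In each of the 8 genes, PARP14 included, the lowest NFE2L1 library lay above the highest control library, which was so for 22.6% of the genes tested. Adjusted p-values here and below are from limma over all genes tested, and fitted differences are taken after log2(TPM + 1), so that those of genes near 1 TPM come out too small. In bulk RNA, a change in the share of expressing cells and a change per cell cannot be told apart. Whether same-group libraries came from separate cultures is not in the labels, so the p-values cover only the spread among these libraries, which may be technical.

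**Figure D1:**
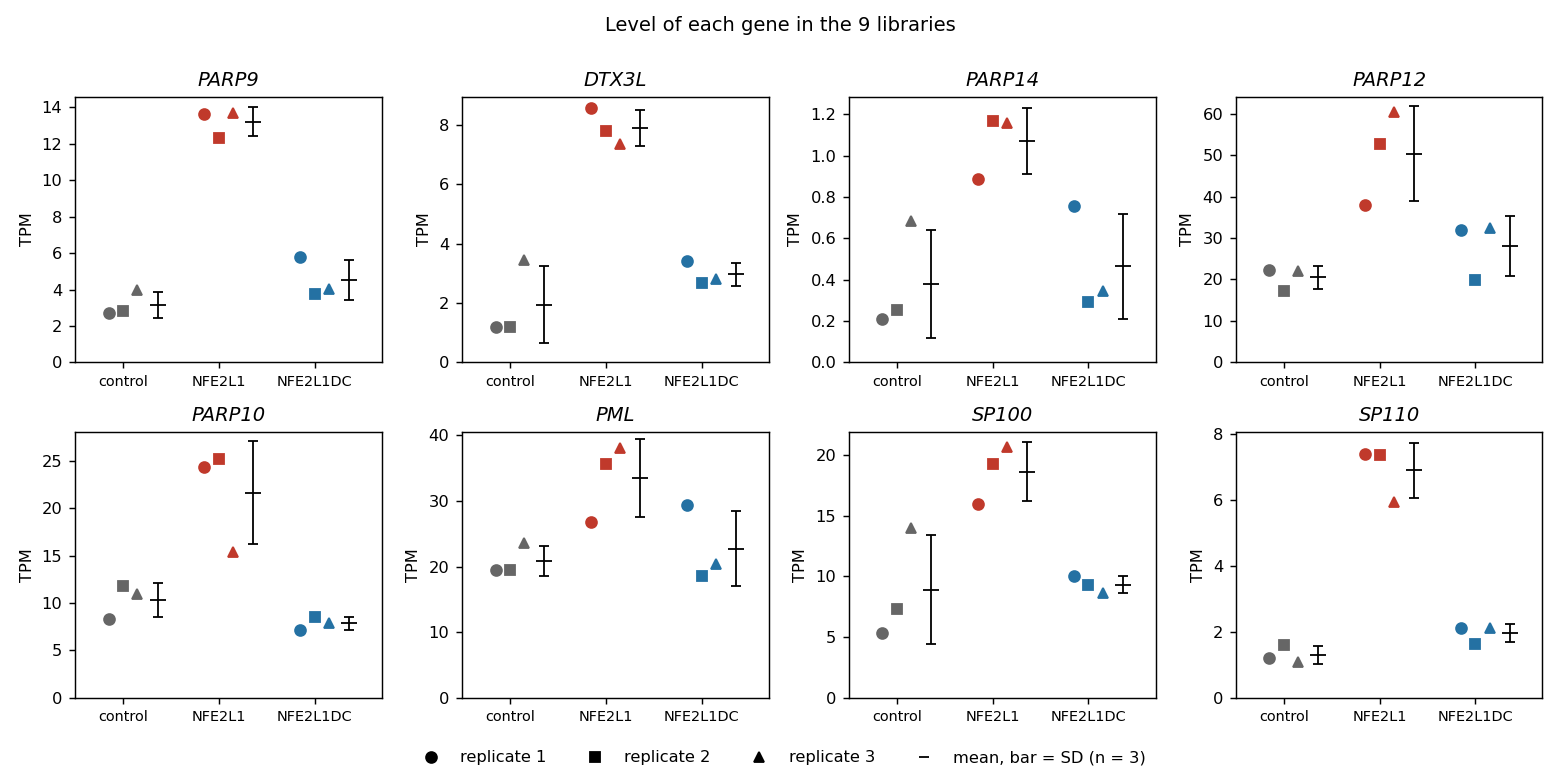
Level of the 8 genes in TPM on the y axis, 1 panel a gene with its own scale from 0, by group on the x axis; symbols mark replicates 1 to 3, and the dash and bar are the mean and SD of 3 libraries. The NFE2L1 points lie above all control points in every panel, and control replicate 3 (triangle) lies far above the other controls for DTX3L and SP100.

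PARP9 encodes a macrodomain protein that works as a complex with DTX3L (PARP9, ENSG00000138496, GRCh38 chromosome 3, 122527924 to 122564577, minus strand). PARP9 was at 2.72, 2.82 and 4 TPM in control replicates 1 to 3, at 13.7, 12.3 and 13.7 TPM in NFE2L1 and at 5.76, 3.75 and 4.01 TPM in NFE2L1DC. All NFE2L1 libraries were high, and the control and NFE2L1DC ranges overlapped. Its mean went from 3.18 ± 0.713 TPM in control (SD, n = 3) to 13.2 ± 0.790 TPM in NFE2L1, a fold of 4.16 (log2 fold change 1.78, SE 0.18, limma adjusted p = 0.000541). The call was kept in all 19 other fits, with an adjusted p of at most 0.0198.

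DTX3L encodes a ubiquitin ligase of the Deltex family and lies head to head with PARP9 (ENSG00000163840, chromosome 3, 122564238 to 122575203, plus strand). Its annotated span overlaps that of PARP9 by 340 bases on the opposite strand. No source used here states strandedness, so reads from the overlap could not be assigned with certainty. DTX3L was at 1.19, 1.20 and 3.46 TPM in control, at 8.56, 7.81 and 7.36 TPM in NFE2L1 and at 3.41, 2.68 and 2.81 TPM in NFE2L1DC. Control replicate 3 lay level with the NFE2L1DC libraries, while the NFE2L1 libraries were above all others. The rise in NFE2L1 was 4.06-fold (log2 fold change 1.68, SE 0.26, limma adjusted p = 0.00537), and it was 2.02 without control replicate 3 and 1.00 with that library as the lone control, called in both fits.

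The ratio of PARP9 to DTX3L in TPM was 2.28 and 2.34 in control replicates 1 and 2, and 1.16 in control replicate 3. It was 1.68 ± 0.160 in NFE2L1 (SD, n = 3) and 1.51 ± 0.160 in NFE2L1DC, both inside the range of the controls only through control replicate 3. Every NFE2L1 library, at 1.58 to 1.86, and every NFE2L1DC library, at 1.40 to 1.69, lay below control replicates 1 and 2 and above control replicate 3.

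PARP14 encodes a large mono-ADP-ribosyltransferase with macrodomains (ENSG00000173193, chromosome 3, 122680618 to 122730840, plus strand). It had the lowest level of the 8 in every group. PARP14 was at 0.209, 0.252 and 0.682 TPM in control, 0.887, 1.17 and 1.16 TPM in NFE2L1 and 0.756, 0.291 and 0.345 TPM in NFE2L1DC. The NFE2L1 libraries lay above all others. In the fit with no filter on low values the log2 fold change against control was 0.60 (limma adjusted p = 0.118) and did not pass.

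PARP12 encodes a zinc finger mono-ADP-ribosyltransferase (ENSG00000059378, chromosome 7, 140023744 to 140063721, minus strand). PARP12 was at 22.2, 17.3 and 22.1 TPM in control, 37.9, 52.7 and 60.5 TPM in NFE2L1 and 32.0, 19.8 and 32.5 TPM in NFE2L1DC. The NFE2L1 libraries spread widely, yet all lay above the other 6. It rose 2.45-fold in NFE2L1 (log2 fold change 1.24, SE 0.22, limma adjusted p = 0.0107). The call was kept without any 1 of the 9 libraries.

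PARP10 encodes another mono-ADP-ribosyltransferase (ENSG00000178685, chromosome 8, minus strand). It was at 8.35, 11.8 and 10.97 TPM in control, 24.3, 25.2 and 15.4 TPM in NFE2L1 and 7.18, 8.56 and 7.85 TPM in NFE2L1DC. NFE2L1 replicate 3 lay well below the other NFE2L1 libraries and still above every control. The rise in NFE2L1 was 2.09-fold (log2 fold change 0.98, SE 0.20, limma adjusted p = 0.0180). It was not called without control replicate 1 (0.84, adjusted p = 0.0651), NFE2L1 replicate 1 (0.88, adjusted p = 0.0751) or NFE2L1 replicate 2 (0.86, adjusted p = 0.0734). PARP10 overlaps GRINA by 3358 bases on the opposite strand, and GRINA was at 233 to 255 TPM in control, 276 to 290 TPM in NFE2L1 and 246 to 262 TPM in NFE2L1DC. The part of GRINA reads in the values of PARP10 was not tested.

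SP110 encodes a nuclear body protein of the SP100 family (ENSG00000135899, chromosome 2, 230167293 to 230225729, minus strand). It was at 1.20, 1.61 and 1.10 TPM in control, 7.38, 7.38 and 5.94 TPM in NFE2L1 and 2.13, 1.65 and 2.13 TPM in NFE2L1DC. The 3 groups did not overlap, and control replicate 3 was the lowest control. Its rise in NFE2L1 was the largest of the 8 in fold, at 5.30-fold (log2 fold change 1.78, SE 0.16, limma adjusted p = 0.000239), and was called in all 19 other fits. The span of SP110 overlaps that of SP140 on the opposite strand, but SP140 was at no more than 0.284 TPM in any library.

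SP100 encodes a permanent component of nuclear bodies (ENSG00000067066, chromosome 2, 230415942 to 230544090, plus strand). It was at 5.38, 7.36 and 14.0 TPM in control, 15.9, 19.3 and 20.7 TPM in NFE2L1 and 10.1, 9.34 and 8.60 TPM in NFE2L1DC. Control replicate 3 lay near the lowest NFE2L1 library and above all NFE2L1DC libraries. The 2.09-fold rise in NFE2L1 (log2 fold change 1.07, SE 0.27, limma adjusted p = 0.0380) was the least stable call of the 6. Of the 9 fits without 1 library it was called only without control replicate 3, at 1.42 (adjusted p = 0.000771). In the other 8 the adjusted p lay between 0.0530 and 0.127, and with control replicate 3 as the lone control the value was 0.38 (adjusted p = 0.360).

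PML encodes the scaffold protein of the bodies (ENSG00000140464, chromosome 15, 73994673 to 74047812, plus strand). It was at 19.6, 19.5 and 23.6 TPM in control, 26.9, 35.6 and 38.1 TPM in NFE2L1 and 29.4, 18.5 and 20.4 TPM in NFE2L1DC. The NFE2L1 libraries lay above the controls, and NFE2L1DC replicate 1 lay above the lowest of them. The difference in NFE2L1 was 1.61-fold (log2 fold change 0.65, 95% confidence interval 0.22 to 1.07, limma adjusted p = 0.0585) and did not pass. It passed without control replicate 3 (0.74, adjusted p = 0.0243) and without NFE2L1DC replicate 1 (0.65, adjusted p = 0.0367). Gene-level TPM cannot separate the isoforms of PML.

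Leaving out control replicate 3 brought all 7 members tested over the threshold in NFE2L1 against control, in a fit where 30.6% of all genes rose. With control replicate 3 as the lone control, 3 of the 7 rose: PARP9, DTX3L and SP110. The plot of fits with libraries left out shows these values.

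**Figure D2:**
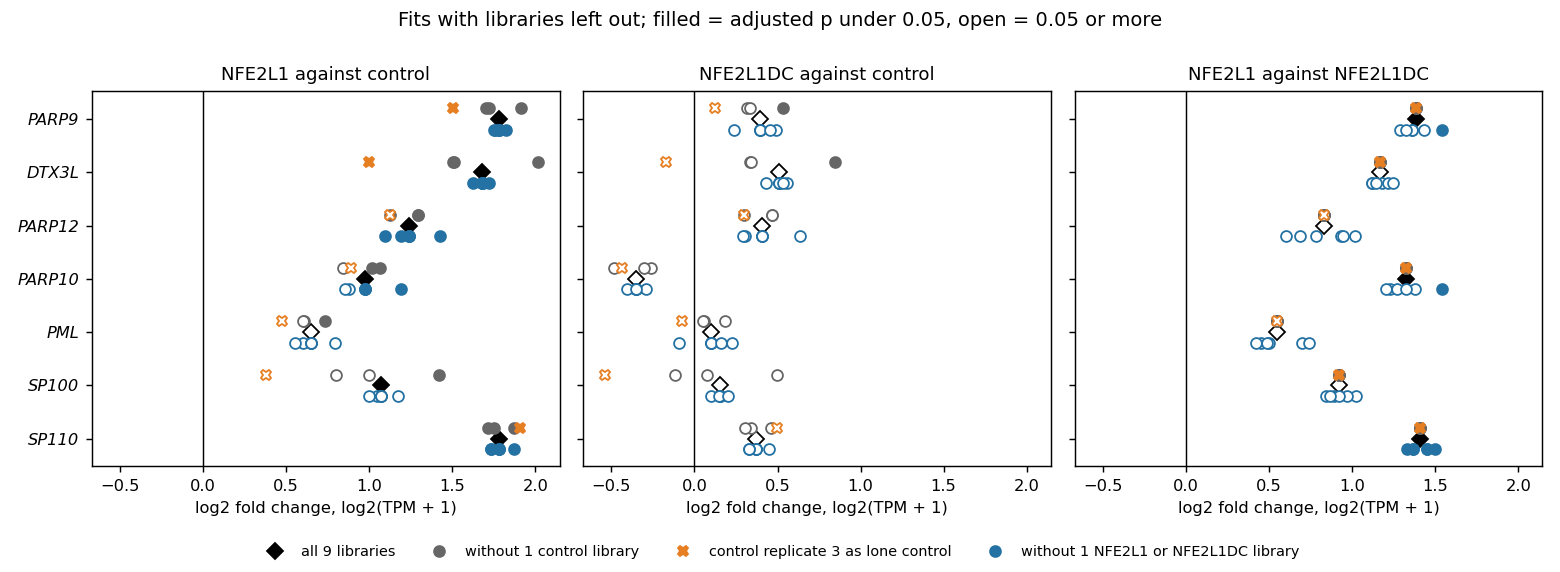
Log2 fold change on the log2(TPM + 1) scale for the 7 genes tested, 1 panel a comparison: black diamonds are the fit to 9 libraries, grey circles leave out 1 control library, blue circles 1 library of the other groups, and orange crosses use control replicate 3 as the lone control. Filled symbols passed an adjusted p of 0.05; PARP9, DTX3L and SP110 stay filled throughout the left panel, and SP100 is the member whose values against control move most with control replicate 3.

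NFE2L1DC was set against the controls next, the same libraries as above, so the 2 comparisons are not independent. None of the 7 members tested changed by limma, with or without the trend of variance with abundance, beside 3.61% of all genes tested that changed and 2.06% that rose. Over all genes 291 rose and 218 fell, or 119 and 175 under median-of-ratios scaling. At an unadjusted p under 0.05 there was 1, SP110, beside 21.7% of all genes. SP110 was also the only member whose NFE2L1DC and control libraries did not overlap (non-overlap on the higher side was seen for 13.7% of all genes). Its mean was 1.97 ± 0.280 TPM in NFE2L1DC beside 1.30 ± 0.268 TPM in control (SD, n = 3), with a log2 fold change of 0.37 (95% confidence interval 0.01 to 0.73, limma adjusted p = 0.221).

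For the other members the intervals of the NFE2L1DC difference included 0. The log2 fold change was 0.51 for DTX3L (95% confidence interval -0.08 to 1.10), 0.41 for PARP12 (-0.09 to 0.91) and 0.39 for PARP9 (-0.01 to 0.80). It was 0.15 for SP100 (-0.46 to 0.76) and 0.10 for PML (-0.33 to 0.52). PARP10 was the only member with a negative value, -0.35 (-0.80 to 0.10), and its means were 7.86 ± 0.691 TPM in NFE2L1DC and 10.4 ± 1.79 TPM in control. These intervals do not show that the lines were alike. Without control replicate 3, DTX3L (0.85, limma adjusted p = 0.00591) and PARP9 (0.53, adjusted p = 0.0488) were called higher, in a fit where 20.4% of all genes were called higher. The signs of DTX3L and SP100 turned with control replicate 3 as the lone control, at -0.17 and -0.54.

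**Figure D3:**
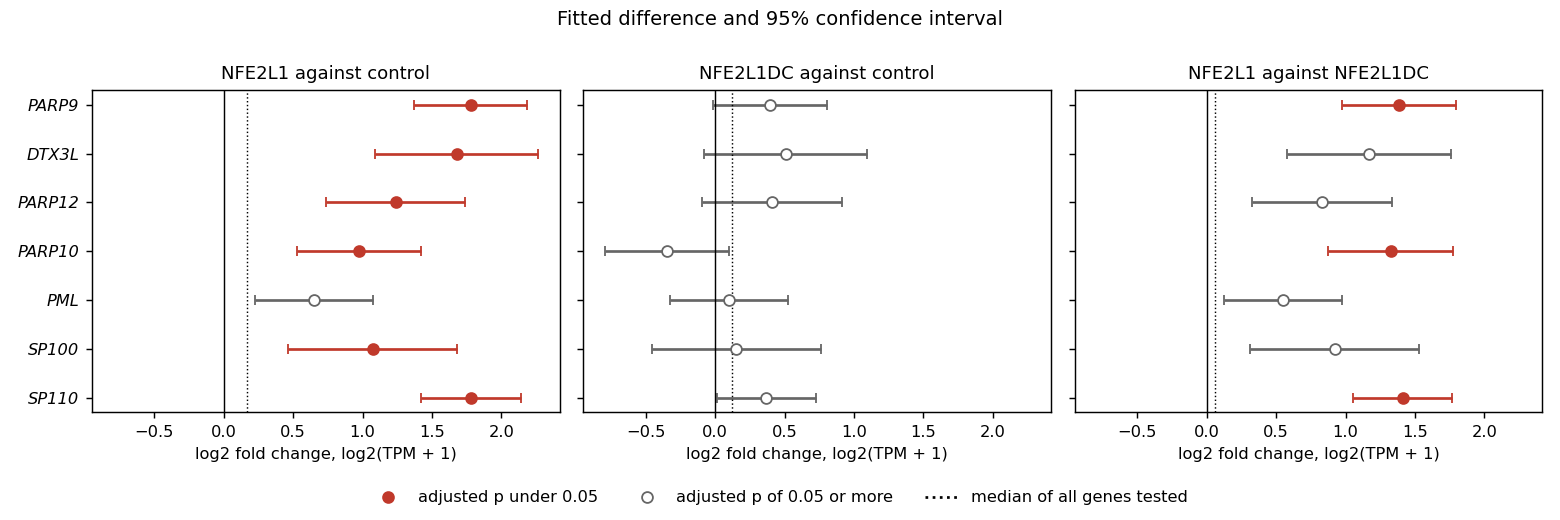
Fitted log2 fold change on the log2(TPM + 1) scale (x axis) with its 95% confidence interval for the 7 genes tested, 1 panel a comparison; red filled points passed an adjusted p of 0.05, open points did not, and the dotted line is the median of all genes tested. Of the genes, 6 are red in the left panel, none in the middle panel and 3 in the right panel.

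The 2 lines were then compared directly, which tests the difference between the forms and uses the controls only for the estimate of spread. PARP9, PARP10 and SP110 were higher in NFE2L1 than in NFE2L1DC and none was lower, 3 of the 7 tested beside 0.715% of all genes that were higher and 0.0779% that were lower. The median log2 fold change of the 7 was 1.17, beside 0.06 over all genes. All 7 had an unadjusted p under 0.05, beside 8.19% of all genes. The NFE2L1 libraries lay above every NFE2L1DC library in 7 of the 8 genes, all but PML, beside 12.4% of the genes tested.

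SP110 was higher by 1.41 (SE 0.16, limma adjusted p = 0.00375), a 3.51-fold difference in mean TPM, and was called in all 9 fits without 1 library. PARP9 was higher by 1.39 (SE 0.18, adjusted p = 0.00797), which is 2.93-fold. Without NFE2L1 replicate 1, 2 or 3, or NFE2L1DC replicate 2 or 3, its adjusted p lay between 0.0501 and 0.0649. PARP10 was higher by 1.33 (SE 0.20, adjusted p = 0.0167), which is 2.75-fold. Its call was lost without NFE2L1 replicate 1 or 2 or any 1 of the NFE2L1DC libraries, with an adjusted p of at most 0.105.

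The other 4 members did not pass in this comparison. DTX3L differed by 1.17 (95% confidence interval 0.58 to 1.76, limma adjusted p = 0.132), and passed without control replicate 3 (adjusted p = 0.00348). SP100 differed by 0.92 (0.31 to 1.53, adjusted p = 0.300), and passed without control replicate 3 (adjusted p = 0.0211). PARP12 differed by 0.83 (0.32 to 1.33, adjusted p = 0.242) and PML by 0.55 (0.13 to 0.97, adjusted p = 0.435).

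Levels were ordered by mean TPM within each group. In control PML (20.9 ± 2.34 TPM) and PARP12 (20.5 ± 2.82 TPM) were highest and overlapped, followed by PARP10 and SP100, which overlapped, then PARP9, DTX3L and SP110, where each overlapped the next, and PARP14. In NFE2L1 PARP12 came first at 50.4 ± 11.5 TPM and PML second at 33.5 ± 5.89 TPM, with overlapping libraries. PARP10 and SP100 again overlapped, as did DTX3L and SP110, while PARP9 was separate from its neighbours. In NFE2L1DC PARP12 and PML overlapped, and SP100 lay above PARP10 without overlap. The summed level of the 8 genes was 60.8 to 79.9 TPM in control, 136 to 163 TPM in NFE2L1 and 64.6 to 90.6 TPM in NFE2L1DC.

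Several members lie close together. PARP9, DTX3L and PARP14 lie on chromosome 3 with PARP15, which was listed at 0 in all libraries. SP110 and SP100 lie on chromosome 2 with SP140 and SP140L. Protein-coding genes within 100000 bases of a member, a set added after the data had been examined, numbered 24, and 16 were tested. None of the 16 changed by limma, with or without the trend, in any of the 3 comparisons. In NFE2L1 against control 4 had an unadjusted p under 0.05, all with positive values. The share of all genes at that p is not given here for this comparison, so this count is not read as a result. With 7.83% of all genes higher and 2.57% lower, 0 of 16 is near the share of all genes. The log2 fold changes of the 16 in NFE2L1 against control ran from -0.25 to 0.87 with a median of 0.15. The highest was KPNA1, 12979 bases from PARP9, at 0.87 (adjusted p = 0.0969), and SP140L was at 0.68 (adjusted p = 0.149).

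Related genes were counted from 9 lists of pathway members. In all, 72 genes of these lists were tested, of which 12 rose and none fell in NFE2L1 against control, 2 rose in NFE2L1DC against control, and 5 were higher in NFE2L1 than in NFE2L1DC. These are 16.7%, 2.78% and 6.94% of the 72, beside 7.83%, 2.06% and 0.715% of all genes tested, so the share in NFE2L1DC was near that of all genes. None was lower in any comparison.

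The 12 interferon genes, the ligands of the pathway, were all under 1 TPM. Of these, 9 were listed at 0 in every library, and the highest value of the other 3 (IFNB1, IFNE and IFNL2) was 0.115 TPM. Of 8 receptor and kinase genes tested, IFNGR1, a chain of the interferon gamma receptor, rose from 6.57 ± 3.33 to 14.0 ± 0.384 TPM in NFE2L1 (log2 fold change 1.08, limma adjusted p = 0.0340), and its control replicate 3 stood at 10.4 TPM. That call was kept in only 3 of 9 fits without 1 library. It was lost without control replicate 1 or 2, any 1 NFE2L1 library or NFE2L1DC replicate 2.

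Of the 8 transcription factors of the pathway, 3 rose in NFE2L1 and the same 3 were higher in NFE2L1 than in NFE2L1DC, IRF7 and IRF9 among them. IRF9 went from 10.8 ± 2.49 TPM in control to 51.3 ± 13.5 TPM in NFE2L1 and 9.37 ± 2.86 TPM in NFE2L1DC, and IRF7, a regulator of interferon genes, from 5.01 ± 0.520 to 29.8 ± 2.93 and 4.31 ± 0.621 TPM. The log2 fold change of IRF7 was 2.36 in NFE2L1 against control (limma adjusted p = 2.69e-05) and 2.54 against NFE2L1DC (adjusted p = 5.1e-05). That of IRF9 was 2.14 (adjusted p = 0.00115) and 2.33 (adjusted p = 0.00296), and these 4 calls were kept in all 9 fits without 1 library. STAT2 did not pass in any comparison, with 24.0 ± 2.38, 29.3 ± 1.98 and 19.0 ± 4.16 TPM.

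Of 6 feedback genes tested, ISG15, USP18 and SOCS3 rose in NFE2L1. ISG15, a ubiquitin-like modifier, was the only 1 of them that also rose in NFE2L1DC, by 1.16 (limma adjusted p = 0.00101) beside 3.81 in NFE2L1. USP18, which removes ISG15 from proteins, rose by 0.87 in NFE2L1 (adjusted p = 0.00148), and reads that it shares with its near-identical relative USP41 could have been split by the counting. USP18 was higher in NFE2L1 than in NFE2L1DC by 0.65 (adjusted p = 0.0290), a call kept only without control replicate 3 among the 9 fits without 1 library. SOCS3, an inhibitor of JAK kinases, rose by 0.63 in NFE2L1 (adjusted p = 0.00350).

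Among the 13 other ADP-ribosyltransferase genes, 11 were tested and 2 rose in NFE2L1 against control, with a median of 0.41. ZC3HAV1, the antiviral zinc finger protein also called PARP13, was at 13.5, 14.2 and 21.9 TPM in control, 38.5, 46.3 and 34.2 TPM in NFE2L1 and 23.4, 21.7 and 20.2 TPM in NFE2L1DC (log2 fold change against control 1.23, limma adjusted p = 0.00431). TIPARP, also called PARP7, rose from 6.62 ± 3.63 to 16.01 ± 1.07 TPM (log2 fold change 1.26, adjusted p = 0.0224). The TIPARP call was lost without control replicate 1 or 2 or any 1 NFE2L1 library. Its control replicate 3 stood at 10.8 TPM, beside 4.30 and 4.75 TPM in the other controls. PARP1, the main enzyme of poly-ADP-ribose synthesis, was at 237, 278 and 274 TPM on average in control, NFE2L1 and NFE2L1DC and did not pass (adjusted p = 0.104 in NFE2L1 against control).

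Of the 6 genes of ADP-ribose removal tested, none changed by limma in any comparison, with or without the trend. In NFE2L1 against control 4 had an unadjusted p under 0.05, in both directions. PARG (log2 fold change 0.62) and ADPRHL2 (0.24) had positive values, and ADPRHL1 (-0.39) and MACROD1 (-0.25) negative ones. The share of all genes at that p is not given here for this comparison. With so few genes, 0 of 6 called is near the share of all genes that changed. Of 3 other Deltex ligase genes tested, DTX4 rose from 2.65 ± 0.511 to 7.86 ± 1.02 TPM in NFE2L1 (limma adjusted p = 0.00325) and to 6.69 ± 1.31 TPM in NFE2L1DC (adjusted p = 0.0173). The second DTX4 call was lost without control replicate 2 and without NFE2L1DC replicate 1 or 3. DTX2 rose by 0.48 in NFE2L1 (adjusted p = 0.0460), a call kept in 2 of 9 fits, those without control replicate 3 and NFE2L1DC replicate 2.

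None of the 13 other nuclear body genes tested changed by limma in any comparison, with or without the trend, and their median was 0.24 in NFE2L1 against control. In that comparison 4 had an unadjusted p under 0.05, all with positive values, and the share of all genes at that p is not given here. The count of 0 of 13 called is near the share of all genes that changed. DAXX, a histone chaperone held in the bodies, was at 48.6, 52.9 and 57.4 TPM on average in control, NFE2L1 and NFE2L1DC. Of 17 SUMO pathway genes tested, SENP5, a SUMO protease, rose in NFE2L1 (log2 fold change 0.74, limma adjusted p = 0.0466), a call kept in only 2 of 9 fits without 1 library, those without control replicate 3 and NFE2L1DC replicate 1.

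**Figure D4:**
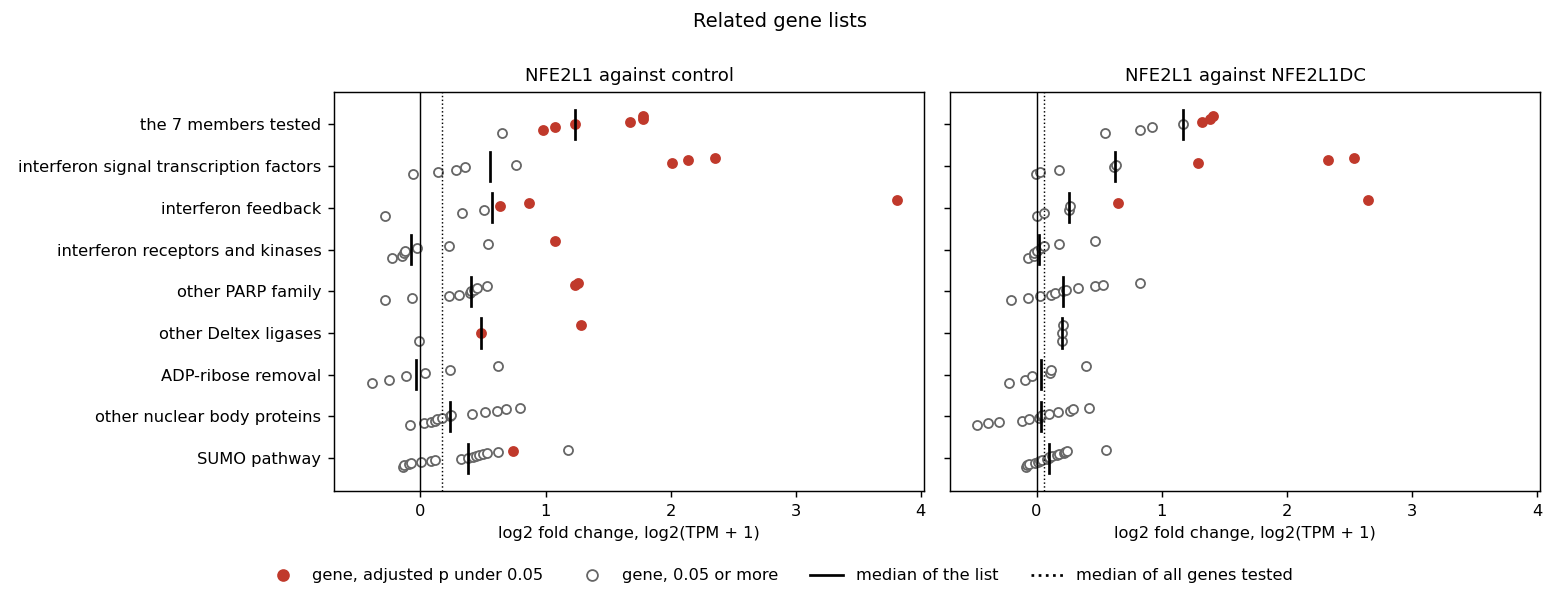
Log2 fold change on the log2(TPM + 1) scale (x axis) of each gene tested, by list (y axis), in NFE2L1 against control (left) and NFE2L1 against NFE2L1DC (right). Red points passed an adjusted p of 0.05, the short black line is the list's median and the dotted line the median of all genes tested; no point of the other nuclear body list is red in either panel.

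The genes whose profile over the 9 libraries was most like the mean standardised profile of the 7 members tested were IFIT2 (Pearson's r = 0.990), IFIH1 (0.988), IFIT3 (0.986) and APOL6 (0.981). FZD10 (0.979), PSMA5 (0.978), LGALS3 (0.977) and DDX58 (0.976) followed, out of 11438 protein-coding genes compared. DDX58 reached 1 TPM only in the 3 NFE2L1 libraries (1.42 to 2.14 TPM). It was therefore among the genes compared only through the group where it was high. The 9 libraries fall into 3 groups, so r describes the order of the groups as much as that of the libraries. IFIT3 went from 0.630 ± 0.391 TPM in control to 11.5 ± 1.30 TPM in NFE2L1 and 1.38 ± 0.308 TPM in NFE2L1DC. PSMA5 followed the same order over a narrow range, with 134 ± 8.96, 174 ± 6.39 and 142 ± 8.69 TPM. On the same scale each member was compared with the mean of the other 6, and r was highest for PARP9 (0.983) and lowest for PARP10 (0.769).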

How the data were processed

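The authors deposited 1 table of TPM values for 58174 genes in 9 libraries. The submitters' processing notes name CASAVA and GRCh38; no source used here names the aligner, quantifier, annotation release or strandedness. Depth per sample is unknown, so no counting interval is given. Groups and replicate numbers came from sample titles. GENCODE release 29 gave positions and GC content for 57836 gene identifiers.

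Genes with at least 1 TPM in at least 3 libraries (14118) were fitted on log2(TPM + 1) with limma 3.58.1 in R 4.3.3, with 1 mean per group, a variance trend, 2-sided tests and Benjamini-Hochberg adjustment over all genes tested in a comparison. Genes at an adjusted p under 0.05 are called. The procedure was tested on simulated data. The alternatives were other pseudocounts and filters, median-of-ratios scaling, a correction for GC content and length, 6 libraries, no trend, a replicate block and each library left out. The fit with control replicate 3 as the lone control was chosen after seeing the data.

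The members and lists were chosen with earlier results of these data known. The rule named all members, NFE2L1, up to 6 called genes of each list, and the 8 genes most like the members. Of 129 list and marker symbols, 128 had a row. ADPRS is listed under its older symbol ADPRHL2. Some genes of the lists are not reported here. Same-numbered libraries did not deviate together, but this cannot decide whether replicate numbers pair samples. The fit reported treats the libraries as unpaired.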

Additional observations from a re-analysis of the deposited data

How the results depend on the processing

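The 7 members tested in 3 comparisons gave 21 results, each refitted under 19 other settings. Of those values, 352 kept direction and side of the threshold, 29 lost a call, 12 gained one and 6 turned sign, all 6 in NFE2L1DC against control and uncalled. The members called in NFE2L1 against control numbered 6 in the fit reported, 4 to 7 in the fits without 1 library, and 3 with control replicate 3 as the lone control. In NFE2L1DC against control none was called in the fit reported and in all others but that without control replicate 3, where 2 were. In NFE2L1 against NFE2L1DC the count was 3, between 1 and 5 without 1 library, and 5 both with only the 6 libraries compared and with control replicate 3 as the lone control. Signs turned for PML at -0.0083 under median-of-ratios scaling and -0.075 with control replicate 3 as the lone control, and PML ran from -0.0914 to 0.2273 in the fits without 1 library. SP100 was at -0.5403 and DTX3L at -0.1728 with that lone control, and SP100 ran from -0.1184 to 0.4983 in the fits without 1 library. The causes were not tested. Median-of-ratios scaling moved the median of all genes in NFE2L1 against control from 0.17 to 0.02. The replicate block left 5, 0 and 2 members called in the 3 comparisons. Same-numbered libraries correlated between -0.189 and 0.109 in their deviations, and differently numbered ones between -0.182 and 0.276. With so few libraries, these values cannot decide whether replicate numbers pair samples. Depth is unknown, and PARP14, near 1 TPM, could be tested only without a filter.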
